A study of Mus musculus with 6 samples.

Results

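Cholesterol genes were followed here in mouse natural killer (NK) cells kept at low oxygen. The set holds 33 genes of mevalonate and sterol synthesis, control by the transcription factor SREBP2, uptake and transport, esterification, and efflux under the nuclear receptor LXR. They were listed by gene name, with earlier results of these data known, and all 33 were found by symbol among the 56953 genes in the files. NK cells from the spleen of wild-type C57BL/6 mice were grown for 7 days with recombinant human interleukin-2 at 1700 U/ml, in medium with fetal calf serum and 5% CO2. One group was kept at 20% oxygen (normoxia) and the other at 1% oxygen (hypoxia), with 3 libraries in each. The labels call the libraries biological replicates without saying whether they came from separate mice or cultures, so a p-value here reflects only how far these libraries spread, which may be technical. The sources used here do not give the age or sex of the mice or how the NK cells were purified.

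Cells make cholesterol from acetyl-CoA. The mevalonate pathway leads to the isoprenoid farnesyl pyrophosphate, which also feeds the prenylation of proteins and the synthesis of ubiquinone. Farnesyl units are then joined to squalene and closed to lanosterol, and lanosterol is trimmed to cholesterol by enzymes of the endoplasmic reticulum, some of which consume molecular oxygen. SREBP2 switches on most of these genes when membrane sterol is low, and INSIG proteins hold it back when sterol is plentiful. LXR responds to oxysterols and switches on the exporters ABCA1 and ABCG1.

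All 6 libraries carried the defining NK genes. Total estimated counts per library lay between 55104810 and 55794698, so 1 count was worth 0.0173 to 0.0190 CPM (counts relative to the TMM-scaled library size). The 9 NK markers summed to 17008 to 19903 CPM in hypoxia and 18649 to 20440 CPM in normoxia, with Gzmb as the largest term. Of these 9, Eomes, a transcription factor of NK cells, was lower in hypoxia (201 against 312 CPM, log2 fold change -0.63, adjusted p = 0.0028 by edgeR), and the other 8 did not pass. With the replicate number fitted as a block, as described below, Ncr1, Klrk1, Prf1 and Il2rb were lower too. Their adjusted p by edgeR was 0.0049, 0.0026, 0.0055 and 0.0010. Tbx21 and Nkg7 were higher in that fit (0.041 and 0.0031), and Klrb1c and Gzmb were not called. Of all genes, 20.0% were lower and 19.2% higher there. The summed markers of several other cell types were higher in hypoxia, with single markers going both ways. The 7 T cell markers summed to 151 to 192 CPM against 95.8 to 112 CPM (Cd3d, Cd3g and Cd4 higher, Cd3e and Cd8a not called), and the 11 macrophage and monocyte markers to 50.9 to 83.6 against 15.5 to 29.2 CPM. Most of the latter was Cd68, which was higher in hypoxia. Lyz2 was also called higher, with 0 counts in normoxia and at most 22 in a hypoxia library (adjusted p = 0.0019 by edgeR). Cd14 was lower (1.47 against 3.88 CPM, log2 fold change -1.39, adjusted p = 0.0010 by edgeR), Csf1r was not called, C1qa and Marco had no count in any library, and Adgre1 had at most 1. The 5 basophil and mast cell markers summed to 76.1 to 89.8 against 19.1 to 27.2 CPM, nearly all of it Mcpt8, with at most 1 count of Fcer1a in any library. Mcpt8 and Cpa3 were both called higher (adjusted p = 1.9e-05 and 0.027 by edgeR). The 6 dendritic cell markers, led by Itgax, summed to 316 to 357 against 172 to 196 CPM. Itgax and Xcr1 were called higher (adjusted p = 0.00015 and 0.024 by edgeR), while Zbtb46 of that list was lower (3.74 against 6.15 CPM, adjusted p = 0.0020 by edgeR). The 5 B cell, 6 neutrophil, 5 erythroid and 5 stromal markers each summed to less than 2 CPM in every library. Among them Cd79b, S100a8 and S100a9 were called higher (log2 fold change 1.86, 5.65 and 5.69), with at most 60 counts in any library. The part of these other markers in the results below was not tested. The second principal component, with 22.0% of the variance, set both replicate 1 libraries apart from the other 4.

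Promoter sequence is shown for 5 synthesis genes that fell in hypoxia and for Idi1, which did not follow them. The stretches come from the RefSeq promoter table of build GRCm38.p6, which holds 27 of the 33 genes. Fdps, Fdft1, Sqle, Stard4, Npc1 and Abcg1 were not searched. Each is the 150 bases before the annotated start, 5′ to 3′ on the strand of the gene. Capitals mark CCAAT on either strand (the box bound by NF-Y, a partner of SREBP) and TCACNCCAC (a sterol response element core).

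Hmgcs1, chr13:119690201-119690350, plus strand: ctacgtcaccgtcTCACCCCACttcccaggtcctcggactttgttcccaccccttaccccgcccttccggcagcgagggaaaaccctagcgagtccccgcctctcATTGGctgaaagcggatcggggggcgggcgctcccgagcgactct
Mvk, chr5:114444119-114444268, plus strand: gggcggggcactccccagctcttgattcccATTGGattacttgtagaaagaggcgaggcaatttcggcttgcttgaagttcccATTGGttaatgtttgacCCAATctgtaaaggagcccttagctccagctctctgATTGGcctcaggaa
Pmvk, chr3:89454391-89454540, plus strand: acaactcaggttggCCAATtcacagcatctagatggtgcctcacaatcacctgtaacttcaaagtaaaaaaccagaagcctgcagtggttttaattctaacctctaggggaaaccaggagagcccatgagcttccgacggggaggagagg
Mvd, chr8:122443423-122443572, minus strand: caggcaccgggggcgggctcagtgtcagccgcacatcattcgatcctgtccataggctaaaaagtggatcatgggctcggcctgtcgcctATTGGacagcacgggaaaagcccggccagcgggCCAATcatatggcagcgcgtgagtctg
Idi1, chr13:8885456-8885605, plus strand: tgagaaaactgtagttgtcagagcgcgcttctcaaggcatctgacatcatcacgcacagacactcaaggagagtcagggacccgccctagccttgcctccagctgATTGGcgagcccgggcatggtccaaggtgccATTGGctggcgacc
Sc5d, chr9:42264301-42264450, minus strand: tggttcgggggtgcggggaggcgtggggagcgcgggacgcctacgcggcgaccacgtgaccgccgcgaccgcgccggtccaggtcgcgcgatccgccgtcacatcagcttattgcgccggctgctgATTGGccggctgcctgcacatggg

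The sterol element core stood at position -137 of Hmgcs1, counted from the start, and in no other of the 27 genes. Of all 27025 genes with promoter windows of 300 bases (250 before to 50 after the start), 1.44% held it. CCAAT on either strand was in 22 of the 27 genes, 16 of 17 synthesis enzymes among them, and in 41.1% of all genes. It lay in Idi1 as well as in Hmgcs1, Mvk, Pmvk, Mvd, Sc5d and Insig1, the 6 searched genes that fell. ACGTG, the core of the hypoxia response element, was found on either strand in Hsd17b7, Sc5d, Dhcr7, Scap, Insig1 and Abca1, which is 6 of 27 genes, a share close to the 21.8% of all genes. The LXR direct repeat (AGGTCA repeated after a short gap, either strand) was found in none of the 27, which do not include Abcg1, and in 0.0148% of all genes. A match is only a run of letters, and a lack of one says nothing about the factor.

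At 1% oxygen the NK cultures held less mRNA of the early mevalonate enzymes and of Abcg1, and more of Abca1. Of the 33 genes, 8 were lower in hypoxia and 1 was higher by the edgeR quasi-likelihood test, with p adjusted by Benjamini-Hochberg over 15591 genes and a threshold of 0.05. Among all genes tested, 9.72% were lower and 11.2% higher. The members had a median log2 fold change of -0.18 (hypoxia over normoxia), against -0.0052 for all genes tested, and 25 of 33 lay below 0. In these bulk libraries, fewer cells of a type and less RNA per cell cannot be told apart. Hypoxia and normoxia did not overlap for 13 members that were lower and 3 that were higher, against 18.7% and 19.6% of all genes.

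Replicates with the same number deviated together across genes, so the replicate number was also fitted as a block. With this replicate block 19 members were lower and 4 higher, against 20.0% and 19.2% of all genes. Scaling by library size in place of TMM gave 4 members higher and 7 lower, against 15.3% and 6.40% of all genes, and moved the median of all genes to 0.08. The direction of the members' median did not depend on the scaling: it was -0.09 with library size and -0.18 with DESeq2 size factors.

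**Figure D1:**
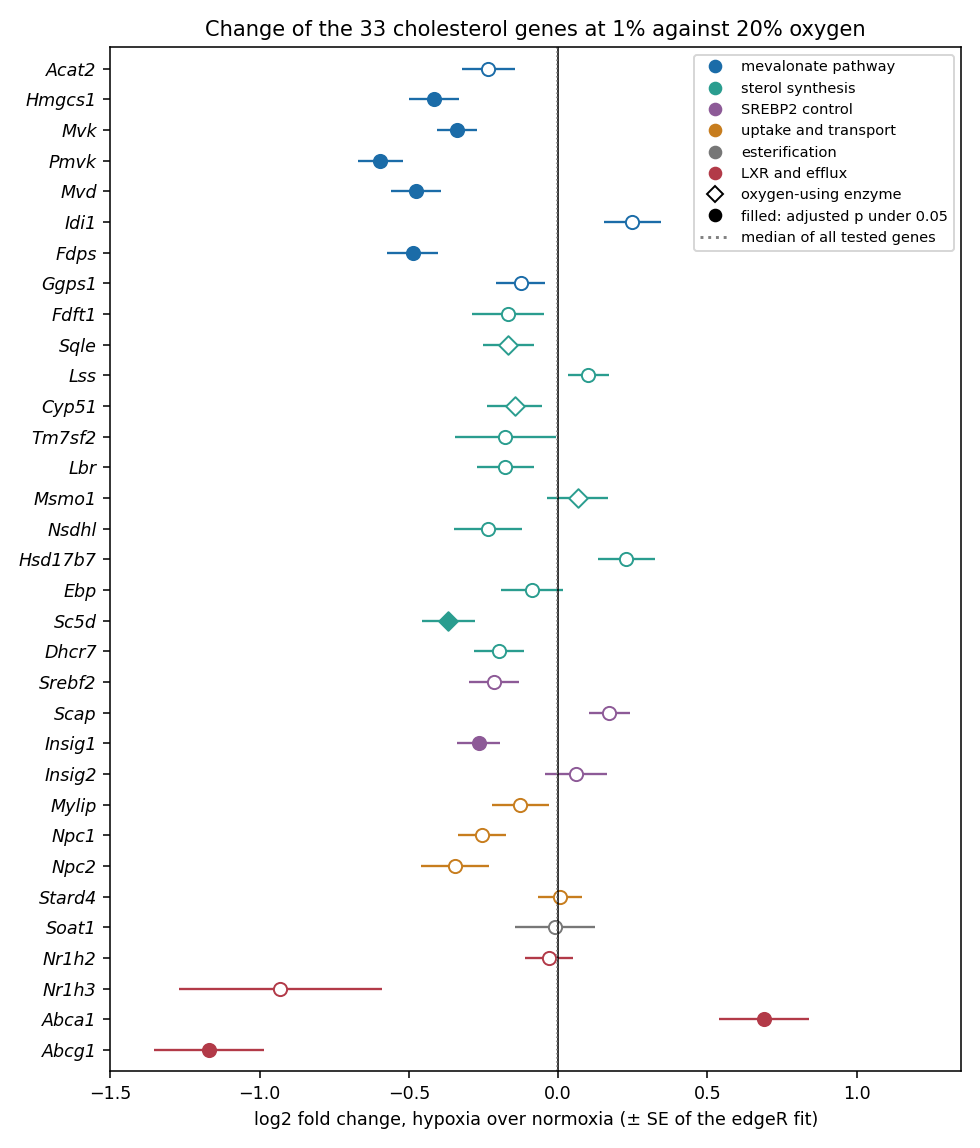
Log2 fold change of each of the 33 genes at 1% over 20% oxygen, with the standard error of the edgeR fit (3 libraries per group), coloured by role. Filled symbols passed an adjusted p of 0.05, diamonds are oxygen-using enzymes, and the dotted line is the median of all tested genes. Of the mevalonate genes in blue, 5 are filled and left of 0, while Abca1 and Abcg1 lie on opposite sides.

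The mevalonate pathway fell at 5 of its 8 measured steps (62.5%, against 9.72% of all genes), from the synthase Hmgcs1 to the farnesyl pyrophosphate synthase Fdps. Its median log2 fold change was -0.38. At the head of the pathway Acat2, the cytosolic thiolase that joins 2 molecules of acetyl-CoA, stood at 102, 84.0 and 88.4 CPM in the hypoxia replicates 1 to 3, and at 115, 103 and 105 CPM in normoxia. The groups did not overlap, but its log2 fold change of -0.23 (SE 0.09) missed the threshold (edgeR adjusted p = 0.094). It passed with the replicate block (0.0021), without hypoxia replicate 1 (0.035) and without both replicate 1 libraries (0.025). Its close relative Acat3 held 18 to 39 counts per library, against at least 4852 for Acat2.

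Hmgcs1 (ENSMUSG00000093930), which makes HMG-CoA, measured 708, 626 and 712 CPM in hypoxia and 966, 869 and 897 CPM in normoxia. All hypoxia libraries lay below all normoxia libraries. Its mean fell from 911 ± 49.7 to 682 ± 48.5 CPM (SD, n = 3), a log2 fold change of -0.42 (SE 0.08, adjusted p = 0.0070 by edgeR). The antisense gene Gm48342 shares 12.1% of its exonic bases but held at most 101 counts per library.

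The next 3 enzymes turn mevalonate into isopentenyl pyrophosphate, and the genes of all 3 fell. Mvk (ENSMUSG00000041939), mevalonate kinase, stood at 31.3, 29.8 and 31.1 CPM in hypoxia and 38.8, 39.8 and 38.1 CPM in normoxia. Its log2 fold change was -0.34 (SE 0.07, adjusted p = 0.0067 by edgeR), and without hypoxia replicate 2 the call was lost (0.054). Pmvk (ENSMUSG00000027952), phosphomevalonate kinase, had the largest drop among the 20 synthesis enzymes, with 35.3, 35.6 and 40.5 CPM in hypoxia and 55.4, 55.7 and 57.2 CPM in normoxia. That is 1.51-fold lower, with a log2 fold change of -0.60 (SE 0.08, adjusted p = 0.00060 by edgeR). The promoter printed above for Pmvk has 1 CCAAT box and no sterol element core. Mvd (ENSMUSG00000006517), the decarboxylase, stood at 79.6, 68.0 and 75.5 CPM against 112, 97.8 and 101 CPM, a log2 fold change of -0.48 (SE 0.08, adjusted p = 0.0036 by edgeR). For these 3 genes the closest pair of libraries across groups was still apart by several CPM.

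Idi1, the isomerase that follows Mvd, went the other way without passing the test. Its levels were 552, 466 and 541 CPM in hypoxia and 468, 397 and 448 CPM in normoxia. Hypoxia was higher within each replicate number, although hypoxia replicate 2 lay just under normoxia replicate 1. The log2 fold change was 0.25 (SE 0.10, adjusted p = 0.096 by edgeR), and it passed with scaling by library size (0.019) and with the replicate block (0.0020). Its relative Idi2 had no count in any library. Taken as a ratio within each library, which no scaling can move, log2 Idi1 over Mvd was 2.80, 2.78 and 2.84 in hypoxia and 2.07, 2.02 and 2.15 in normoxia. The ratio to Fdps, the next enzyme, was likewise higher in all hypoxia libraries (0.69 to 1.03) than in normoxia (-0.03 to 0.21). These pairs were chosen after their values were seen.

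Fdps (ENSMUSG00000059743), which builds farnesyl pyrophosphate, stood at 269.9, 289.6 and 324 CPM in hypoxia and 404, 406 and 428 CPM in normoxia. The lowest normoxia library was above the highest hypoxia library, and the log2 fold change was -0.49 (SE 0.09, adjusted p = 0.0035 by edgeR). Fdps shares 26.7% of its exonic bases with Gm43738 on the same strand, so reads of the shared part cannot be told apart. Gm43738 was looked for by symbol and not found among the genes in the files. Ggps1, which extends farnesyl to geranylgeranyl pyrophosphate for protein prenylation, stood at 32.2, 30.6 and 34.5 CPM in hypoxia and 38.2, 33.4 and 34.5 CPM in normoxia. Its libraries overlapped, and the 95% interval of its log2 fold change ran from -0.31 to 0.06.

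**Figure D2:**
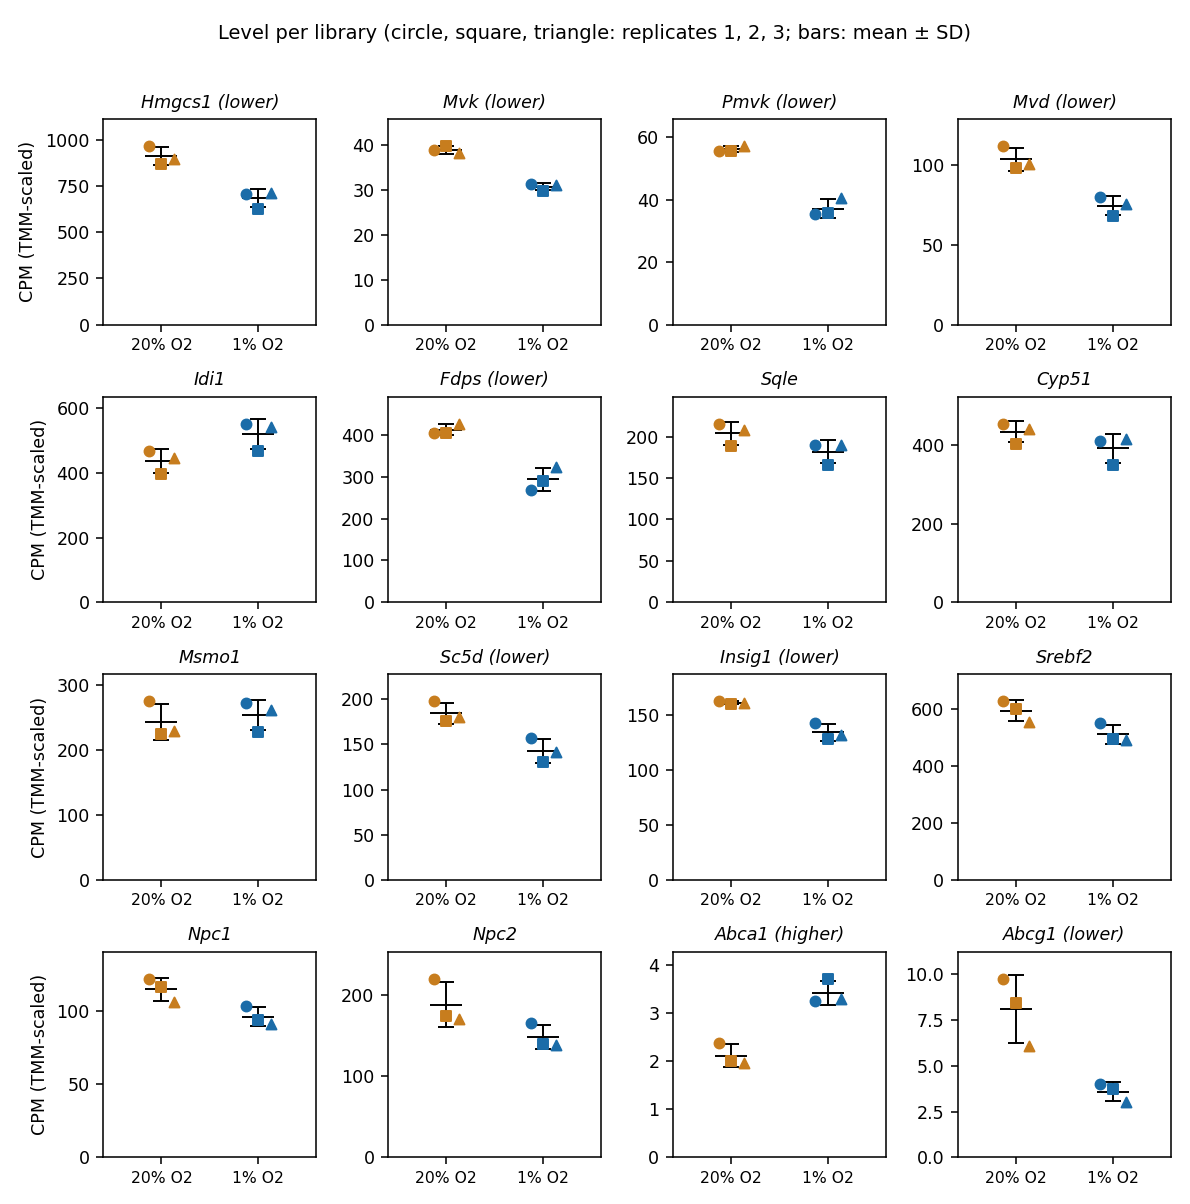
CPM (TMM-scaled) in each library for 16 of the 33 genes, at 20% oxygen in orange and 1% oxygen in blue. Circles, squares and triangles are replicates 1, 2 and 3, bars are mean ± SD (n = 3), and every axis starts at 0. The groups separate for Hmgcs1, Mvk, Pmvk, Mvd and Fdps, overlap for Idi1, Sqle, Cyp51 and Msmo1, and separate in opposite directions for Abca1 and Abcg1.

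Past farnesyl pyrophosphate the share of genes that fell was near that of all genes in the main fit, but not with the replicate block. Of 12 enzymes from squalene synthase to the last reductases, 1 was lower (8.33%, against 9.72% of all genes). The other 11 did not pass, and the median log2 fold change of the 12 was -0.17. With the replicate block 7 of the 12 were lower, a larger share than the 20.0% of all genes, and 1 was higher, against 19.2%.

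The 4 oxygen-using enzymes were taken apart from the rest. They are Sqle, which puts an epoxide on squalene, Cyp51, which removes the 14-alpha methyl group of lanosterol, Msmo1, which oxidises the methyl groups at carbon 4, and Sc5d, which desaturates the sterol ring. Of these, 1 of 4 was lower and their median log2 fold change was -0.16. Of the 16 synthesis enzymes that use no oxygen, 5 were lower, with a median of -0.19. These 5 all belong to the mevalonate pathway, an earlier stage than the 4. Of the 8 sterol synthesis enzymes that use no oxygen, 0 were lower, with a median of -0.17. With the replicate block the counts were 3 of 4, 10 of 16 and 4 of 8. Over all genes tested, 9.72% were lower in the main fit and 20.0% with the block. No test between the lists was made, since genes are not replicates.

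Sc5d (ENSMUSG00000032018) was the oxygen-using enzyme that fell. Its levels were 157, 130.1 and 142 CPM in hypoxia and 198, 176 and 180.0 CPM in normoxia, with no overlap between groups. The log2 fold change was -0.37 (SE 0.09, adjusted p = 0.016 by edgeR). The call was lost without hypoxia replicate 2 (0.094) and without hypoxia replicate 3 (0.057).

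Sqle stood at 189.9, 166 and 190.3 CPM in hypoxia and 216, 189 and 208 CPM in normoxia. Hypoxia was lower within each replicate number, yet the groups overlapped. Its log2 fold change of -0.17 (95% interval -0.36 to 0.03, edgeR adjusted p = 0.21) passed only with the replicate block (0.017) among the alternatives tried. Cyp51 followed the same pattern, at 412, 349 and 416 CPM against 455, 404 and 443 CPM (log2 fold change -0.15, SE 0.09, adjusted p = 0.30 by edgeR, and 0.036 with the replicate block). The Msmo1 groups overlapped, at 273, 228 and 262 CPM in hypoxia and 275, 225 and 229 CPM in normoxia. Its 95% interval, -0.16 to 0.30, contained both directions. Within libraries log2 Msmo1 over Sc5d was 0.80 to 0.88 in hypoxia and 0.35 to 0.47 in normoxia. This pair, the highest and lowest fold change of the 4, was chosen after its values were seen.

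Of the 8 enzymes of this stage that need no oxygen, edgeR called 0 higher and 0 lower, with 1 and 1 at an unadjusted p under 0.05. DESeq2 and limma-voom called 0 as well. Fdft1, squalene synthase and the first step committed to sterols, stood at 146 ± 16.8 CPM in hypoxia, against 165 ± 26.3 CPM in normoxia. Its exons share 18.3% of their bases with Ctsb on the other strand. Ctsb went the other way, at 208 ± 17.6 against 169 ± 19.4 CPM, without overlap between groups. Its log2 fold change was 0.30 (adjusted p = 0.064 by edgeR, and 0.00065 with the replicate block). The part of Ctsb reads in the Fdft1 level was not tested. Lss, which closes the ring to lanosterol, was at 221, 210.4 and 217 CPM in hypoxia and 199, 203 and 203 CPM in normoxia. These groups did not overlap, but the log2 fold change was 0.10 (SE 0.07, adjusted p = 0.34 by edgeR).

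Sterol C14 reductases are encoded by Lbr and Tm7sf2. Lbr, which is also a receptor for nuclear lamins, was at 293 ± 28.8 against 331 ± 26.3 CPM, and Tm7sf2, which shares 12.1% of its exonic bases with Vps51 on the same strand, at 14.1 ± 2.71 against 15.9 ± 3.35 CPM. Among the later steps Nsdhl, which takes part in removing the carbon 4 methyl groups, was at 72.5 ± 8.02 against 85.3 ± 12.5 CPM. Hsd17b7, its partner reductase, was at 67.5 ± 7.20 against 57.6 ± 5.06 CPM, a log2 fold change of 0.23 (SE 0.10, adjusted p = 0.13 by edgeR). It passed with the replicate block (0.0032), when scaled by library size (0.030) and without normoxia replicate 1 (0.048). Ebp, the isomerase of the sterol ring, overlapped between groups, with an interval of -0.32 to 0.14. Dhcr7, which reduces 7-dehydrocholesterol, was at 93.0 ± 7.21 against 107 ± 7.46 CPM (log2 fold change -0.20, SE 0.08, adjusted p = 0.13 by edgeR). Lbr, Nsdhl, Fdft1 and Dhcr7 passed as lower once the replicate number was a block (adjusted p = 0.013, 0.0032, 0.038 and 0.0051 by edgeR).

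**Figure D3:**
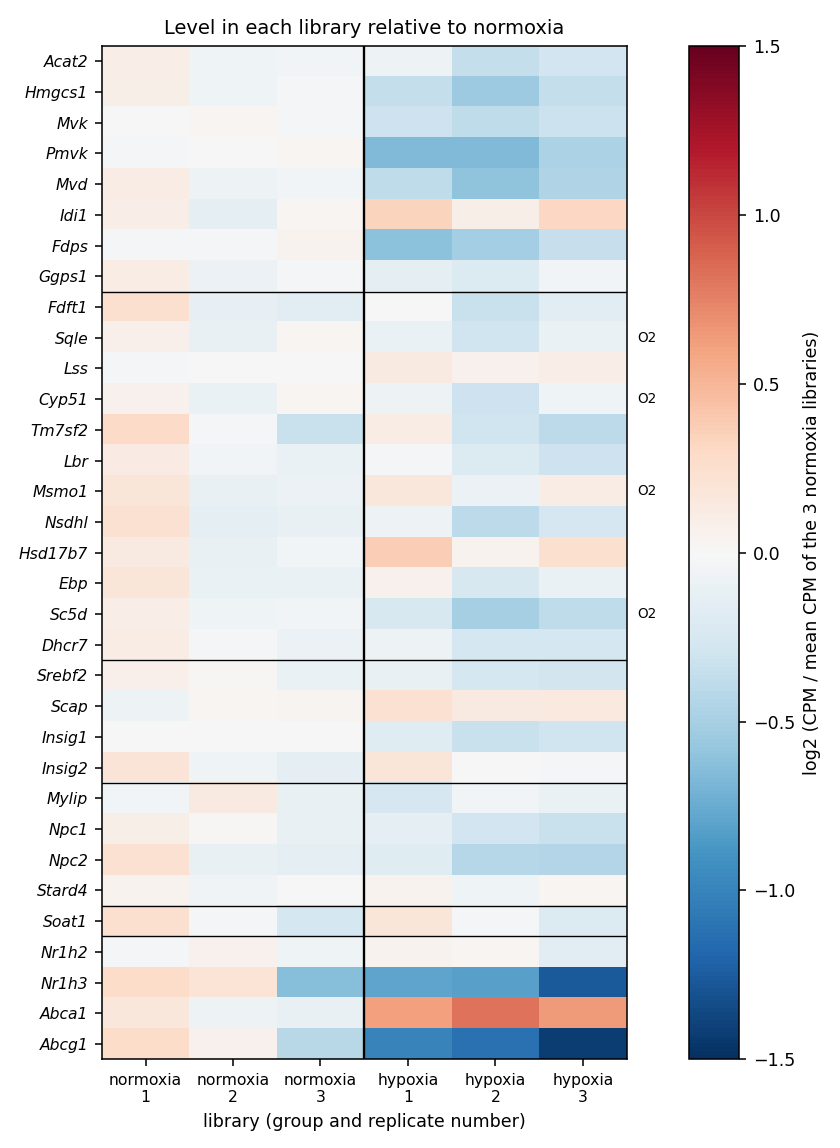
Level of each gene in each library as log2 of CPM over the normoxia mean, with roles separated by lines and oxygen-using enzymes marked O2. Blue is lower and red is higher than the normoxia mean. The hypoxia columns are blue for most synthesis genes, with Idi1, Lss and Hsd17b7 red, and the replicate 1 columns are often the highest of their group.

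Same-numbered libraries shared part of their level. Normoxia replicate 1 was the highest of its group for 16 of the 20 synthesis enzymes and hypoxia replicate 1 for 14, with 12 enzymes in both. Hypoxia replicate 2 was the lowest of its group for 15 of 20. Summed over the 20 enzymes, the libraries held 3908, 3424 and 3802 CPM in hypoxia and 4483, 3999 and 4149 CPM in normoxia. The groups did not overlap, and the closest pair was hypoxia replicate 1 and normoxia replicate 2. Without both replicate 1 libraries 11 members were lower and 1 higher, beside 1481 and 1811 of all 15814 genes tested in that setting. Without hypoxia replicate 2, 5 members were lower. Calls fell over all genes there as well, with 804 of 15914 lower, against 1516 of 15591 in the main fit.

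Among the genes that control SREBP2, Insig1 fell and the other 3 did not pass. Insig1 (ENSMUSG00000045294), itself a target of SREBP2 and a brake on it, stood at 143, 128 and 132 CPM in hypoxia and 162, 159.9 and 161 CPM in normoxia. The groups did not overlap, and the log2 fold change was -0.27 (SE 0.07, adjusted p = 0.026 by edgeR). This call was among the least stable. It was lost with scaling by library size (0.091) and without hypoxia replicate 2 (0.16) or 3 (0.093), or normoxia replicate 2 (0.076) or 3 (0.064). Insig2, a related brake whose gene is not driven by SREBP2, was at 27.8, 24.7 and 24.2 CPM against 28.1, 23.4 and 22.1 CPM, with a 95% interval of -0.17 to 0.29.

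Srebf2, the gene of SREBP2, stood at 549.7, 493 and 491 CPM in hypoxia and 626, 599 and 553 CPM in normoxia. All hypoxia libraries were lower, with a log2 fold change of -0.21 (SE 0.08, adjusted p = 0.10 by edgeR), and the replicate block called it (0.0059). Scap, which escorts SREBP2 to the Golgi for cleavage, was at 104, 97.9 and 98.1 CPM against 84.3, 90.7 and 91.4 CPM. The hypoxia libraries were all higher, at a log2 fold change of 0.17 (SE 0.07, adjusted p = 0.11 by edgeR). It passed with scaling by library size (0.037) and with the replicate block (0.023). Its exons share 13.2% of their bases with 5830462I19Rik on the other strand.

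Of the uptake and transport genes, 0 of 4 were called by edgeR. At an unadjusted p under 0.05, 2 were lower, DESeq2 called the same number and limma-voom 0. Those 2 work side by side in emptying cholesterol from the lysosome. Npc2, the soluble carrier, stood at 165, 139 and 139 CPM in hypoxia and 219, 174 and 169.6 CPM in normoxia. Npc1, the membrane protein that receives cholesterol from it, stood at 104, 93.9 and 91.5 against 122, 116 and 106 CPM. Neither gene overlapped between groups. Their log2 fold changes were -0.35 (SE 0.11) and -0.25 (SE 0.08), with edgeR adjusted p of 0.058 and 0.052. Both passed with the replicate block (0.00027 and 0.0013), by the Wald test of DESeq2 (0.020 and 0.026), without a filter (0.0063 and 0.045) and without both replicate 1 libraries (0.012 and 0.033). They also passed without hypoxia replicate 1 (0.037 and 0.041) and without normoxia replicate 3 (0.0496 and 0.039), and Npc1 with DESeq2 size factors (0.048). Mylip, the ubiquitin ligase that marks lipoprotein receptors for degradation and is a target of LXR, was at 16.6 ± 1.23 and 18.1 ± 1.62 CPM. Stard4, a cytosolic sterol carrier and SREBP2 target, was nearly level at 311 ± 13.6 and 309 ± 11.3 CPM. Its 95% interval of -0.16 to 0.17 leaves room for a small change either way. The esterifying enzyme Soat1, which stores cholesterol in lipid droplets, stood at 79.7 ± 11.0 and 80.3 ± 14.1 CPM (95% interval -0.31 to 0.29).

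The LXR and efflux genes held the largest changes of the set, in opposite directions. Abcg1 (ENSMUSG00000024030), which passes cholesterol to mature HDL particles, stood at 4.01, 3.72 and 3.01 CPM in hypoxia and 9.73, 8.40 and 6.07 CPM in normoxia. It was 2.25-fold lower, with a log2 fold change of -1.17 (SE 0.18, adjusted p = 0.0020 by edgeR), and no library of 1 group reached the other. Abca1 (ENSMUSG00000015243), which loads cholesterol and phospholipid onto lipid-poor apolipoprotein, stood at 3.24, 3.71 and 3.29 CPM in hypoxia and 2.38, 2.01 and 1.96 CPM in normoxia. It was 1.61-fold higher, with a log2 fold change of 0.69 (SE 0.15, adjusted p = 0.010 by edgeR). Counts per library ran from 107 to 214 for Abca1 and from 169 to 511 for Abcg1. Within libraries log2 Abca1 over Abcg1 was -0.31, -0.01 and 0.13 in hypoxia and -2.03, -2.06 and -1.63 in normoxia. This ratio does not depend on the scaling, and the pair was chosen after its values were seen.

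Both exporters are also expressed by macrophages, whose markers went both ways, as given above. Cd68, which carries their sum, and the scarce Lyz2 were higher in hypoxia, and Cd14 was lower. The part of such cells in either exporter was not tested. Nr1h2, the gene of the widely expressed LXR beta, was at 92.5 ± 7.68 and 94.4 ± 4.29 CPM, with a 95% interval of -0.21 to 0.15. Nr1h3, the gene of LXR alpha, which is typical of macrophages and liver, was close to the limit of detection, with 10 to 27 counts per library. It stood at 0.245, 0.242 and 0.178 CPM in hypoxia and 0.514, 0.489 and 0.274 CPM in normoxia, without overlap. The log2 fold change was -0.93 (SE 0.34, adjusted p = 0.082 by edgeR), and it passed with the replicate block (0.034) and without normoxia replicate 3 (0.043).

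Neighbouring genes of the pathway gave a mixed picture. Of 61 genes in 8 lists, 56 were tested, of which 11 were lower and 4 higher, with a median log2 fold change of -0.06. Of all genes 9.72% were lower and 11.2% higher. With the replicate block 16 were lower and 11 higher, against 20.0% and 19.2% of all genes. With scaling by library size 7 were lower and 8 higher, against 6.40% and 15.3%. The share that was higher was thus near that of all genes in both of these alternatives.

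Of 5 genes of acetyl-CoA supply and other SREBP targets, 4 fell (80%, against 9.72% of all genes). Srebf1, which encodes SREBP1 and is a target of LXR, stood at 147, 145 and 139 CPM in hypoxia and 203, 227 and 219 CPM in normoxia (log2 fold change -0.59, SE 0.07, adjusted p = 0.00054 by edgeR). Acss2, which makes acetyl-CoA from acetate, stood at 34.9, 32.2 and 30.8 against 59.1, 53.6 and 45.6 CPM (log2 fold change -0.69, SE 0.10, adjusted p = 0.0012 by edgeR). In both genes every hypoxia library was below every normoxia library. Tmem97, whose protein binds NPC1, and Aacs, which activates acetoacetate, also fell, by 0.41 and 0.31 on the log2 scale. The Tmem97 call was lost without hypoxia replicate 2 (0.051). The Aacs call was lost with scaling by library size (0.058) and without any 1 of hypoxia replicates 1 and 2 and normoxia replicates 2 and 3 (up to 0.13). Acly, the main cytosolic source of acetyl-CoA, did not pass (log2 fold change -0.062).

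Electron donors of the oxygen-using enzymes were measured as 5 genes. With edgeR 0 were called, 0 passed an unadjusted p under 0.05, and DESeq2 and limma-voom called 0. Por, the reductase that serves CYP51 and squalene epoxidase, was at 94.5 ± 4.74 CPM in hypoxia, against 101 ± 4.80 CPM in normoxia. Cyb5a and Cyb5b, the cytochromes b5, were at 23.7 ± 2.76 against 25.6 ± 0.326 CPM and at 186 ± 5.21 against 203 ± 9.34 CPM. Cyb5r3, the reductase of cytochrome b5, was at 84.0 ± 6.08 against 76.7 ± 3.88 CPM and passed as higher with the replicate block (adjusted p = 0.046 by edgeR). Pgrmc1, a heme protein that binds CYP51, was at 88.3 ± 4.28 and 86.7 ± 6.19 CPM.

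Of 9 genes of SREBP processing and sterol-sensor turnover, 1 was higher (11.1%, against 11.2% of all genes). This was Rnf145, a ubiquitin ligase of the sterol-sensing system, at 94.8 ± 4.41 against 79.3 ± 4.72 CPM (edgeR adjusted p = 0.034). The call was lost with no filter on low counts (0.062) and when any library but normoxia replicate 1 was left out (adjusted p up to 0.14). Erlin1, an endoplasmic reticulum scaffold protein, missed the threshold (log2 fold change 0.28, SE 0.10, adjusted p = 0.084 by edgeR), and passed with the replicate block (0.013), with scaling by library size (0.038) and without normoxia replicate 3 (0.020).

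Of 12 genes of the isoprenoid branches, 2 were lower (16.7%, against 9.72% of all genes). Pdss2, a subunit of the enzyme that builds the ubiquinone side chain, stood at 5.08 ± 0.387 CPM in hypoxia, against 8.14 ± 0.558 CPM in normoxia (log2 fold change -0.68, SE 0.11, adjusted p = 0.0025 by edgeR). Rabggtb, a subunit of the transferase that prenylates RAB proteins, stood at 42.1 ± 0.577 against 53.3 ± 1.95 CPM (edgeR adjusted p = 0.0058). Of the farnesyltransferase subunits, edgeR called neither Fnta nor Fntb, but with the replicate block Fnta was higher (0.023) and Fntb lower (0.031).

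Of 12 further uptake and transport genes tested, 2 were lower (16.7%, against 9.72% of all genes). Lrp8, a lipoprotein receptor, stood at 35.8, 37.4 and 37.7 CPM against 42.2, 52.0 and 58.3 CPM, and Gramd1c, a sterol carrier between membranes, at 3.48 ± 0.313 against 4.86 ± 0.301 CPM (edgeR adjusted p = 0.015 and 0.026). Both calls were lost with scaling by library size (0.0501 and 0.069). Lrp8 was also lost without hypoxia replicates 1 or 2 (0.055 and 0.061) or normoxia replicate 2 (0.056), and Gramd1c without any library but normoxia replicate 1 (up to 0.099).

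The 2 called genes of ester turnover went apart. Soat2, a second cholesterol-esterifying enzyme, stood at 16.8 ± 1.25 CPM in hypoxia against 24.7 ± 3.89 CPM (log2 fold change -0.56, SE 0.12, adjusted p = 0.0092 by edgeR). Nceh1, an enzyme that splits cholesteryl esters, was higher, at 20.6 ± 0.846 against 16.3 ± 1.79 CPM (0.34, SE 0.09, adjusted p = 0.030 by edgeR). The Nceh1 call was lost without any library but normoxia replicate 1 (adjusted p up to 0.12).

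Of 7 tested LXR partners, targets and exporters, 2 rose and 2 fell (28.6% each, against 11.2% and 9.72% of all genes). Pltp, which transfers phospholipid between lipoproteins, stood at 38.6, 36.3 and 46.3 CPM in hypoxia and 24.8, 21.7 and 22.3 CPM in normoxia (log2 fold change 0.82, SE 0.10, adjusted p = 0.00057 by edgeR). Lpcat3, which remodels membrane phospholipid, stood at 62.4, 52.3 and 53.9 against 88.0, 81.8 and 83.1 CPM (log2 fold change -0.58, SE 0.08, adjusted p = 0.0010 by edgeR). Smpdl3a, a phosphodiesterase, rose by a log2 fold change of 0.61, and Rxrb, an obligate partner of LXR, fell by 0.28 on the log2 scale. The Smpdl3a call was lost without any 1 of hypoxia replicates 1 and 2 and normoxia replicates 2 and 3 (adjusted p up to 0.086). The Rxrb call was lost with scaling by library size (0.069) and without hypoxia replicates 2 or 3 or normoxia replicate 2 (up to 0.080). Of 6 oxysterol enzymes 3 were tested and edgeR called 0, with 1 higher and 1 lower at an unadjusted p under 0.05. DESeq2 called those numbers and limma-voom 0. Hsd3b7, a bile acid enzyme, and Sult2b1, a sterol sulfotransferase, had log2 fold changes of 0.63 and -0.58 (adjusted p = 0.072 and 0.058 by edgeR). With the replicate block both passed (0.0034 and 6.4e-05), as without a filter on low counts (0.021 and 0.00036) and by the Wald test of DESeq2 (0.033 and 0.012). Sult2b1 also passed without hypoxia replicate 1 (0.018), normoxia replicate 3 (0.038) or both replicate 1 libraries (0.0073).

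**Figure D4:**
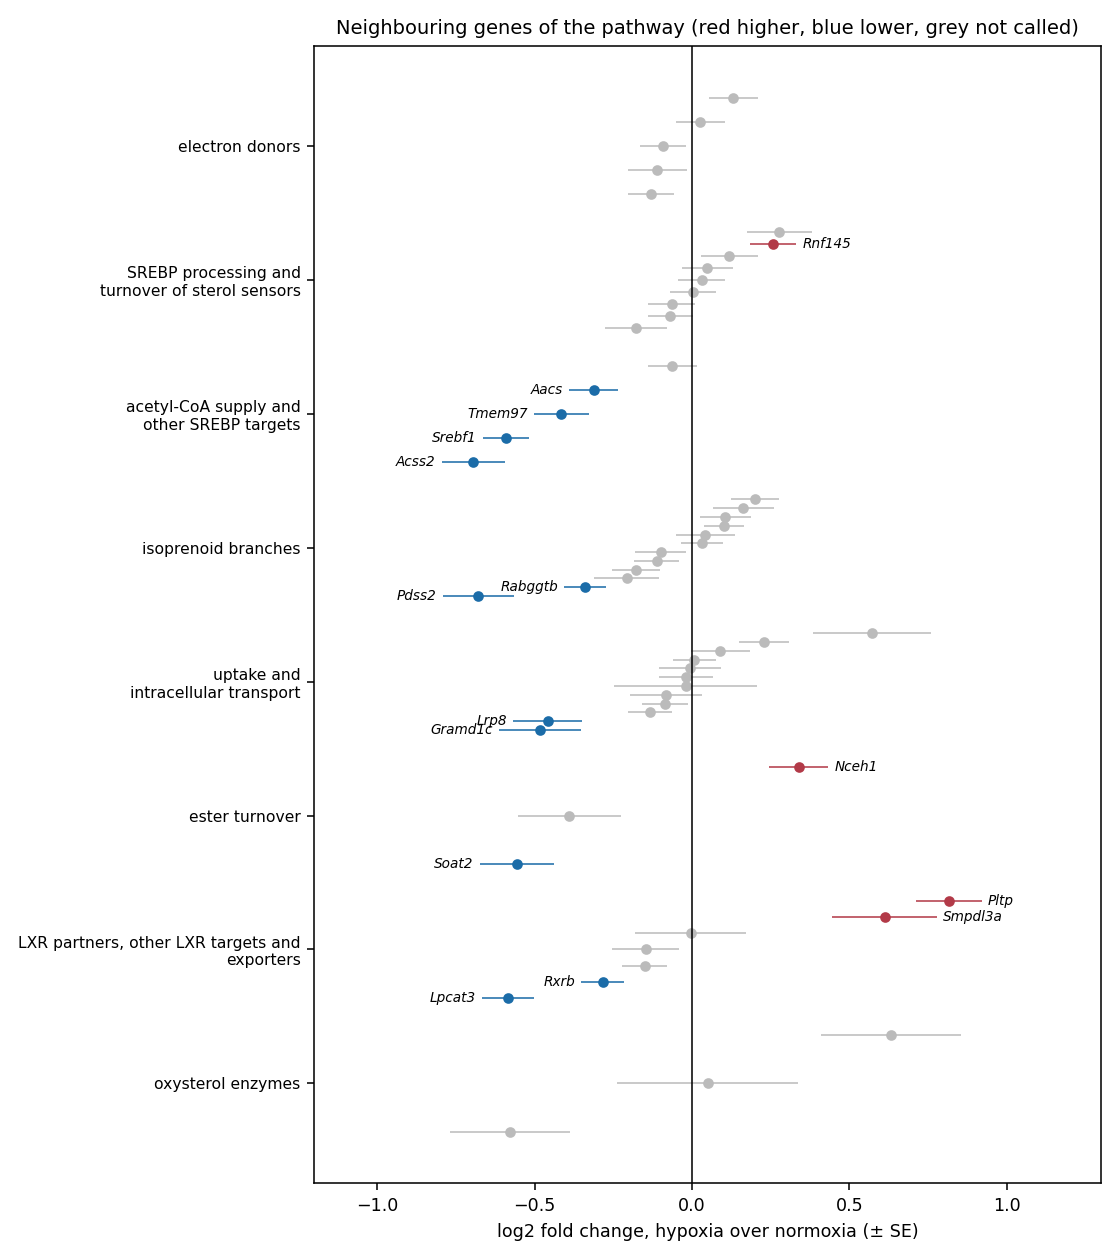
Log2 fold change of the 56 tested neighbouring genes at 1% over 20% oxygen, with standard errors, by list. Red genes were called higher, blue genes lower, and grey genes did not pass. Acetyl-CoA supply and other SREBP targets has 4 of 5 genes in blue, electron donors none in colour, and the LXR list genes on both sides.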

How the data were processed

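The authors deposited an estimated count per Ensembl gene and library, not normalized. The submitters' processing notes name Trim Galore 0.6.4, kallisto 0.4.6, edgeR 3.17 and build GRCm39, with no role or order. Libraries were strand-specific, per the labels' protocols, but the annotation release and whether counting used strand are not stated in the sources used here. A second deposited file per library, on a log2 scale, was not used. Estimated counts are divided between similar transcripts, so relatives and overlapping genes can share counts.

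GENCODE M21 gave symbols for 52029 of 56953 IDs. Counts were rounded, filtered with filterByExpr (minimum count 10, total 15), which left 15591 genes and all 33 members, scaled with TMM and tested without covariates by the quasi-likelihood test of edgeR 4.0.16 (R 4.3.3), with Benjamini-Hochberg adjustment over all genes and a threshold of 0.05. The SE was taken as the size of the log2 fold change divided by the root of F, and 95% intervals from it and the t quantile. Levels are TMM-scaled CPM. Alternatives numbered 14 and included DESeq2 1.42.0 and limma 3.58.1. The members and lists were chosen with earlier results of these data known. Every member is named, with the 2 smallest p of each neighbouring list and all electron donors. Tmem97, Aacs, Acly, Smpdl3a, Rxrb, Fnta and Fntb were named after their values were seen. The tests were tested on simulated data.

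Same-numbered libraries of the groups, numbered in the labels, deviated from their group means together (correlations of 0.47, 0.33 and 0.30 across genes), above a criterion of 0.1, so the numbers were taken as pairs in 1 alternative, the replicate block. All main calls come from the fit without it. Hypoxia replicate 2 and normoxia replicate 3, which differ in number, also passed the criterion (0.12), and the remaining unmatched pairs lay below 0. The labels do not say what same-numbered libraries share. Replicate variation (edgeR's biological coefficient) was 10.9% without and 5.64% with the block.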

Additional observations from a re-analysis of the deposited data

How the results depend on the processing

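Of the 14 alternatives, all kept Hmgcs1, Pmvk, Mvd, Fdps and Abcg1 as lower, and the 13 that tested Abca1 kept it as higher. At least 5 CPM in 3 libraries removed Abca1 and Nr1h3, so 0 members were higher by edgeR there. With the replicate block 4 members were higher and 19 lower, 3 oxygen-using steps and 10 other synthesis steps were lower, and 11 neighbouring genes were higher. Over all genes tested, 19.2% were higher and 20.0% lower with the block. The block reversed no called gene. Scaling by library size gave 4 members higher, and 8 neighbouring genes higher and 7 lower, against 15.3% higher and 6.40% lower of all genes. Leaving out single libraries gave 1 to 2 members higher and 5 to 11 lower, 0 to 1 oxygen-using steps lower, and 1 to 6 neighbouring genes higher and 6 to 11 lower. Over all genes, leaving out single libraries gave 1146 to 1980 higher and 804 to 1636 lower, against 1745 and 1516 in the main fit. Genes near 0 changed sign. The log2 fold change of Soat1 was 0.076 with library size, 0.022 with the 5 CPM filter and 0.020 without both replicate 1 libraries, and -0.13 to 0.13 with single libraries left out. For Nr1h2 it was 0.054 with library size, 0.0014 with the 5 CPM filter and -0.073 to 0.040 with libraries left out. For Stard4 it was -0.0034 with no filter and -0.022 to 0.054 with libraries left out, and in that setting Insig2 ranged from -0.011 to 0.17, Ebp from -0.17 to 0.011 and Pgrmc1 from -0.032 to 0.075. No called gene changed sign. Without both replicate 1 libraries, 2 libraries remain in each group. Depth limits Nr1h3 most, at 10 to 27 counts per library.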
